A study of Homo sapiens with 2 samples.

Results

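Chemokine ligand genes encode small secreted proteins that guide white blood cells, and their places in the Hi-C domains of HepG2 cells are described here. The members are the protein-coding genes of the RefSeq gene table of GRCh38.p14, the same build as hg38, whose symbol is CCL or CXCL followed by a number, with PF4, PF4V1, PPBP, XCL1, XCL2 and CX3CL1. This gave 48 genes, of which 46 had a position on an assembled chromosome, among 19817 protein-coding genes placed in the same way. CCL3L1 and CCL4L1, members of a stretch of chromosome 17 whose copy number varies between genomes, are listed by the table on an alternate sequence and were not placed.

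Hi-C reads the contacts between stretches of DNA that lie close together in the nucleus, and a domain is a stretch that contacts itself more than its neighbours. HepG2 is a long-established line grown from a human liver tumour. The PA+OA cells were kept for 48 h with palmitic acid at 120 µM and oleic acid at 240 µM, in medium with 1% fatty acid-free BSA. The mock cells received DMSO diluted 1 to 1000 for 48 h, and it is not clear from the labels whether their medium also held BSA. Both groups were grown in DMEM with 10% serum, and each is 1 library of the same line, so no spread between replicates can be given and no test of the treatment was made. The lists hold 2524 domains for PA+OA and 2679 for mock, all positions are multiples of 40 kb, and the number of contacts behind them is unknown. They hold no expression values, so neither the identity of the cells nor the activity of any ligand gene could be checked.

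Chemokines are named for the spacing of the cysteines near their start, which gives the CXC, CC, C and CX3C classes, and they act through G protein-coupled receptors on the cells they attract. Many CXC genes lie side by side on chromosome 4 and many CC genes side by side on chromosome 17, an arrangement that arose through repeated gene duplication. In the liver, hepatocytes, resident macrophages and endothelial cells can all make chemokines, and several of the genes are known targets of the transcription factor NF-kappaB and of interferon signalling.

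The 46 placed genes are 17 CXC, 26 CC, 2 C and 1 CX3C genes on 10 chromosomes. Neighbours at most 1 Mb apart were joined into a locus, which gave 8 loci with 38 genes and 8 single genes. They lay in 17 PA+OA domains and 16 mock domains. Because genes of 1 locus mostly share a domain (CCL5 in PA+OA is the exception), they are not independent of each other, and the counts are therefore also given per locus.

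Sequences are shown first for the neutrophil-attracting and interferon-induced CXC genes of chromosome 4. They were chosen because most of those with a promoter window carry a shared short word before the start site (CXCL9 and PPBP do not). A further reason is that their domains differ in how well they matched between the lists. The word searched was GGANNTTCC, a form of the NF-kappaB recognition sequence, with its reverse complement GGAANNTCC. RefSeq promoter windows of GRCh38.p14, from 250 bases before to 50 bases after the start site, matched 33 of the 46 placed genes. The word was found in 9 of these 33 windows (27.3%), against 718 of 15812 windows of all protein-coding genes (4.54%). Of the 9 windows, 6 belong to the CXCL8 to CXCL2 locus. Copies made by duplication share such letters, so these windows are not independent of each other. In every one of the 9 the match reads in both directions at the same place and was counted once. The 200 bases before the start site follow 5′ to 3′, with the match in capitals, for CXCL8 (chr4:73740369-73740568, plus strand), CXCL1 (chr4:73869193-73869392, plus), CXCL3 (chr4:74038690-74038889, minus), CXCL2 (chr4:74099196-74099395, minus), CXCL10 (chr4:76023498-76023697, minus) and CXCL11 (chr4:76036071-76036270, minus).
CXCL8: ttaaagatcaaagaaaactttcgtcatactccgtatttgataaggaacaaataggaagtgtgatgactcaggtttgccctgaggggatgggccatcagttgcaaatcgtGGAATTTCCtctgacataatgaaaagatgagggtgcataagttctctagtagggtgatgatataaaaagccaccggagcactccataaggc
CXCL1: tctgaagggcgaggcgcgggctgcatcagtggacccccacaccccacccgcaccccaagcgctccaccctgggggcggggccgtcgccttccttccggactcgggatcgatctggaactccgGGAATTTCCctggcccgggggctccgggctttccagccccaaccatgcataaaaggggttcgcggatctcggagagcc
CXCL3: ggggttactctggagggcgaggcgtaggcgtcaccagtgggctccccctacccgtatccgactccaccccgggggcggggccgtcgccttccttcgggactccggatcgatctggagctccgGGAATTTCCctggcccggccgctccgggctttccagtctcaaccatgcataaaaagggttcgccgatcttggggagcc
CXCL2: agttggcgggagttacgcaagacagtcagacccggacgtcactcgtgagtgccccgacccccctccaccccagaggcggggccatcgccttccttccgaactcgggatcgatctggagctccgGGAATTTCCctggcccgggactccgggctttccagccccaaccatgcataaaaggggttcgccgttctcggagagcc
CXCL10: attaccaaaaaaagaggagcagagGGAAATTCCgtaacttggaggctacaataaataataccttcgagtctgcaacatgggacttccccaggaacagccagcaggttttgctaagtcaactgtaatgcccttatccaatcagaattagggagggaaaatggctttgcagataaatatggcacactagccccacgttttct
CXCL11: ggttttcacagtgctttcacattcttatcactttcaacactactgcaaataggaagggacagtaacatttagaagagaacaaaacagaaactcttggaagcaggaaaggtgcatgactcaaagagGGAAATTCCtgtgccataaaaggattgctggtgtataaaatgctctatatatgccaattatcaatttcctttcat

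All 6 matches of the CXCL8 to CXCL2 locus, in CXCL8, CXCL6, CXCL1, CXCL5, CXCL3 and CXCL2, were the word GGAATTTCC, among 8 genes of that locus with a window. They began 91 bases before the start site in CXCL8, 89 in CXCL6, 90 in CXCL5, 78 in both CXCL1 and CXCL3, and 77 in CXCL2. CXCL10 and CXCL11 carried GGAAATTCC, which began 176 bases before the start site in CXCL10 and 75 in CXCL11. The remaining match, GGAAGTTCC, was in CCL1 of chromosome 17, and none of the 5 windows of the CCL5 to CCL4L2 locus held the word. CCL5, CCL16, CCL14, CCL4 and CCL4L2 of that locus had no window and were not searched. The same holds for CCL2 and CCL11 of the CCL2 to CCL1 locus. A second word, GAAA repeated after a spacer of any 2 bases and searched on both strands, resembles the element bound by interferon-activated factors. It overlapped none of the NF-kappaB-like matches and was present in CXCL9 (GAAATGGAAA) and CXCL10 (GAAAGTGAAA), 2 of 33 windows (6.06%), against 502 of all 15812 (3.17%). The CXCL10 match begins 221 bases before the start site, outside the stretch printed. A match describes the letters only and is neither a shown binding site nor a cause of any domain.

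A domain was called kept where both of its edges had an edge of the other list within 1 bin of 40 kb and no other boundary of that list lay inside. Of the 46 ligand genes, 12 lay in a kept domain of the PA+OA list (26.1%, Wilson 95% interval 15.6 to 40.3, counting error only), and the mock list gave the same count. The background over all 19817 protein-coding genes was 40.4% in the PA+OA list and 40.5% in the mock list. Of these, 19497 lay in a PA+OA domain and 19545 in a mock domain, and genes in no domain counted as not kept. All 46 ligand genes lay in a domain. The interval of the ligand genes ends just under the background. It treats genes that share a domain as independent, so it is too narrow to set against the background. Counted by locus and single gene, 4 of 16 were kept in either list (25%, 10.2 to 49.5), an interval that includes the background. The coordinates were equal to the base in both lists for 11 of the 46 genes (23.9%), against 33.3% of all protein-coding genes.

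The kept genes came mostly from 1 place. CXC genes made up 11 of the 12, or 11 of 17 of their class (64.7%), and CCL20 was the single CC gene among 26 (3.85%). Chromosome 4 held 9 kept genes of 13 (69.2%, 42.4 to 87.3), all of them in 1 domain. Chromosome 17 held none of 17 (up to 18.4%), and the loci of other chromosomes held none of 10 (up to 27.8%). These intervals treat genes that share a domain as independent, so they are too narrow to set against the background. Outside chromosome 4 the kept count was 3 of 33 genes, and outside chromosome 17 it was 12 of 29, in either list.

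The count also depends on how closely edges must match, and so does its background. With a tolerance of 0 bins it was 11 ligand genes in either list (background 32.8% in PA+OA and 32.7% in mock). With a tolerance of 2 bins it was 15 ligand genes in either list (background 42.2% in PA+OA and 42.2% in mock), as CXCL9, CXCL10 and CXCL11 joined. With 3 bins it was 17 (background 45.2% in PA+OA and 45.3% in mock), as CCL26 and CCL24 joined. When kept meant a reciprocal overlap of at least 80%, it was 20 of 46 (background 52.5% in PA+OA and 52.3% in mock). No gene of chromosome 17 was kept under any of these rules.

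The other 34 genes fell into 4 kinds when seen from the PA+OA list. For 14 of them (30.4%, background 15.5%) the PA+OA domain was a piece of a larger mock domain whose outer edges were matched. These are the 10 genes of the CCL5 to CCL4L2 locus, the 3 of the CCL27 to CCL21 locus and CCL25. Most of that count thus comes from 1 mock domain. For 3 (6.52%, background 19.0%) the PA+OA domain spanned several mock domains between matched outer edges. For 11 (23.9%, background 19.9%) 1 edge was matched, and for 6 (13.0%, background 3.64%) neither was. Those last 6 are all the genes of the CCL2 to CCL1 locus, so the count is that of 1 domain. Seen from the mock list, 1 gene, CXCL16, had a domain with neither edge matched (2.17%, background 5.55%).

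The median length of the domain that held a ligand gene was 1520 kb in the PA+OA list and 1520 kb in the mock list, beside 1560 kb and 1480 kb over all protein-coding genes in those lists. By locus or single gene, the PA+OA domain was longer in 10 of 16, equal in 3 and shorter in 3. By gene, it was longer for 21 of 46 ligand genes (45.7%, 32.2 to 59.8, background 36.2%), equal for 11 (23.9%, background 34.4%) and shorter for 14 (30.4%, background 29.4%), so the interval of the longer domains includes the background. The length plot shows that the equal medians hide both directions: on chromosome 17 the PA+OA domain was longer at CCL2 to CCL1 and at CXCL16, and shorter at CCL5 to CCL4L2.

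**Figure D1:**
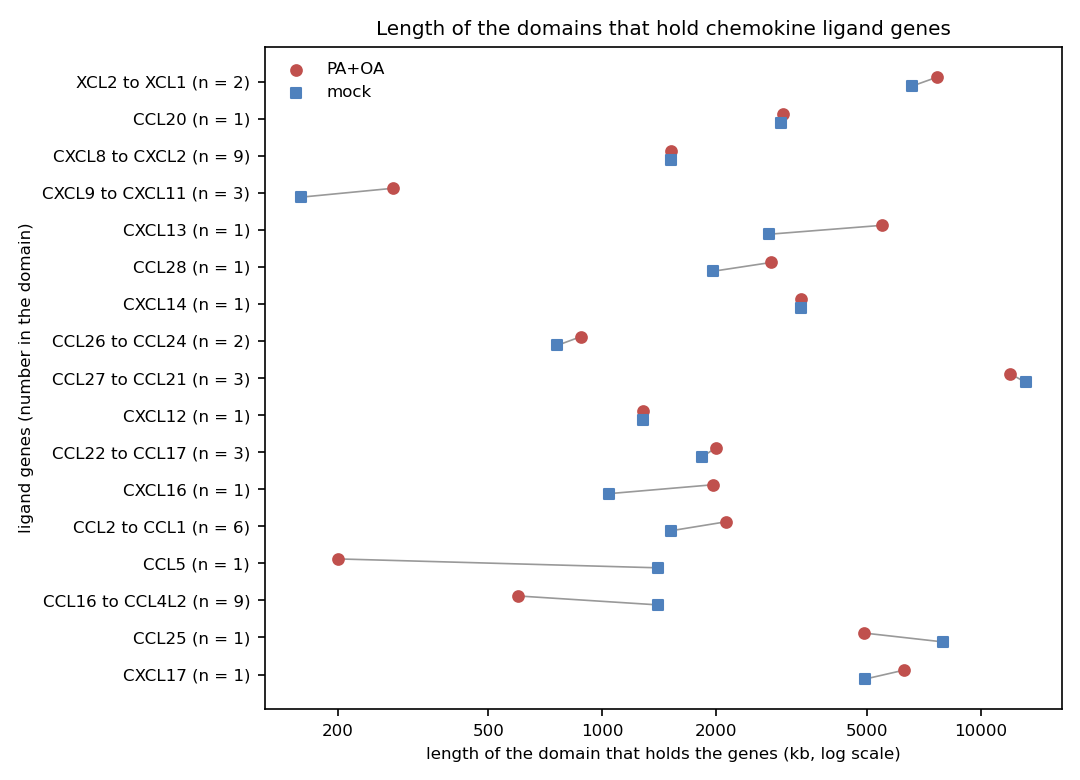
Length in kb (log axis) of the domain that holds each ligand locus or single gene, with PA+OA as circles and mock as squares, 1 library each. CCL5, drawn apart from the other 9 genes of its locus, lies at 200 kb in PA+OA and 1400 kb in mock, CXCL9 to CXCL11 at 280 kb in PA+OA and 160 kb in mock, and CCL27 to CCL21, the longest, at 11960 kb in PA+OA and 13160 kb in mock.

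The largest kept group was the CXCL8 to CXCL2 locus of chromosome 4. It holds the neutrophil attractants CXCL8, CXCL6, CXCL1, CXCL5, CXCL3 and CXCL2, the platelet chemokine PF4 with its close copy PF4V1, and PPBP, a platelet protein that is cut into a neutrophil attractant. All 9 genes lay in 1 domain, chr4:73280001-74800000, of 1520 kb in PA+OA and 1520 kb in mock. The domain holds 18 protein-coding genes, among them ALB, AFP and AFM of the albumin family and the EGF receptor ligands EPGN, EREG, AREG and BTC. Its left edge lay between ANKRD17 and ALB and its right edge between BTC and PARM1 in both lists.

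The 9 genes sat deep in this domain. CXCL8, the outermost, was 462 kb from the nearest boundary in PA+OA and 462 kb in mock, and CXCL3, the innermost, was 758 kb away in both. The nearest boundary that only 1 list had was a mock boundary at position 72520000, which lies 1222 kb from CXCL8. The map of the loci shows the same edges in the PA+OA and mock lists here and different edges at the other 3 loci drawn.

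**Figure D2:**
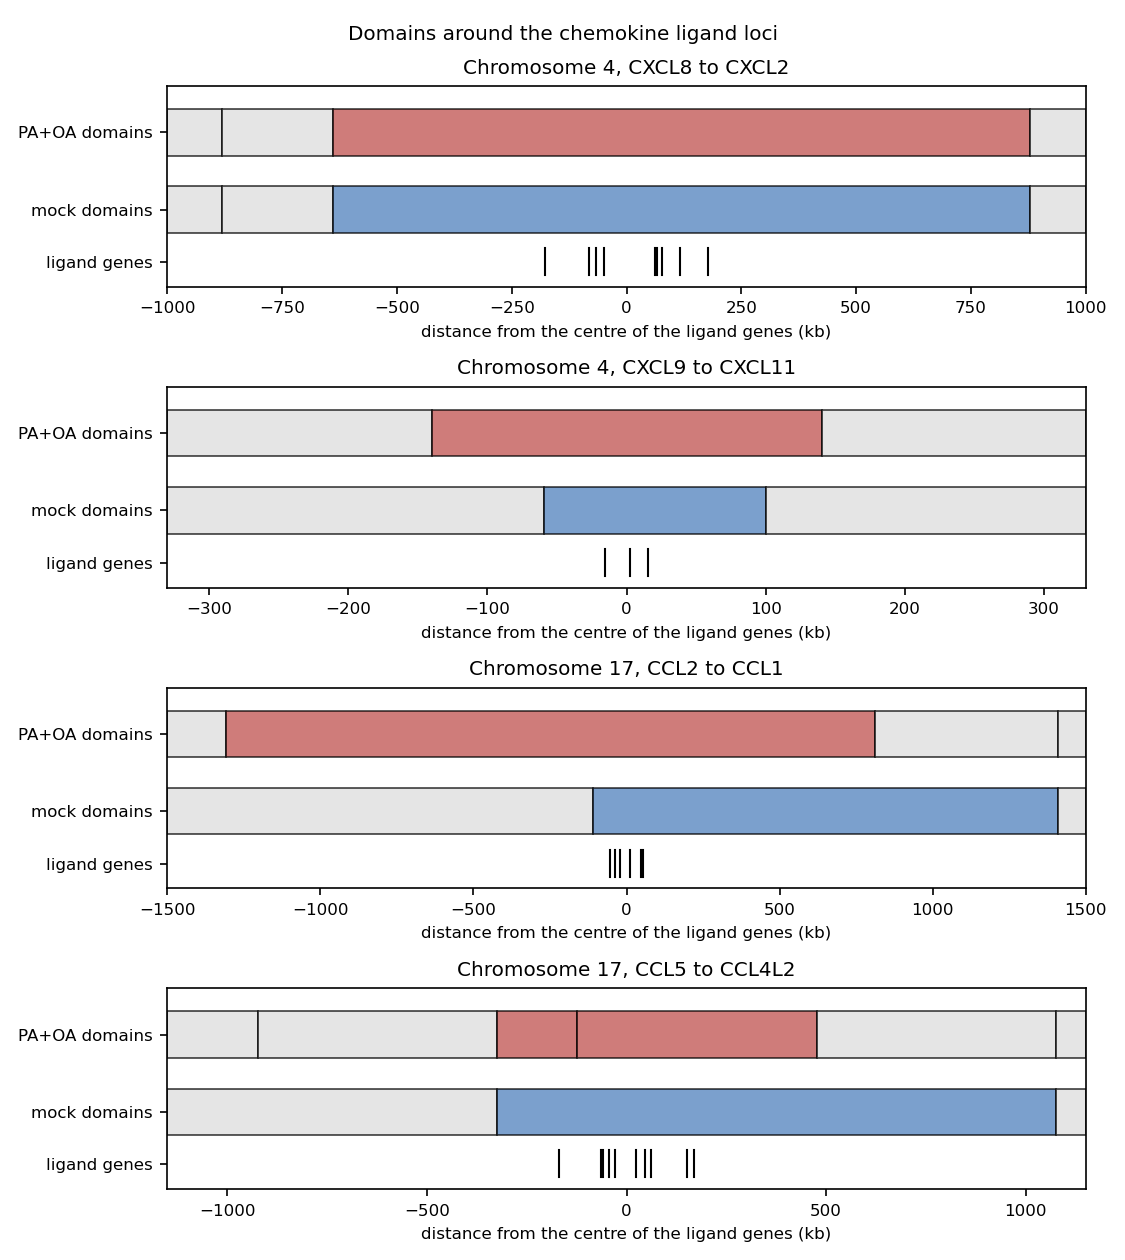
Domains of the PA+OA list (upper bar, red where it holds ligand genes) and of the mock list (lower bar, blue where it holds ligand genes) around the 4 ligand loci of chromosomes 4 and 17, with grey for domains without ligand genes and ticks for the ligand genes. The x axis is the distance in kb from the centre of the ligand genes; the edges coincide at CXCL8 to CXCL2, and CCL5 to CCL4L2 spans 2 PA+OA domains and 1 mock domain.

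Further along chromosome 4, the interferon-induced genes CXCL9, CXCL10 and CXCL11, which attract T cells through CXCR3, lay in a short domain. In PA+OA it ran over chr4:75880001-76160000 (280 kb, 8 protein-coding genes), and in mock over chr4:75960001-76120000 (160 kb, 5 genes). The left edges differ by 80 kb and the right edges by 40 kb, so that PPEF2, NAAA and NUP54 shared the ligand domain in PA+OA and not in mock. CXCL9 was 124 kb from the nearest boundary in PA+OA and 44.4 kb in mock, CXCL10 was 138 kb and 62.3 kb away, and CXCL11 was 125 kb and 74.9 kb away. All 3 genes were thus nearer an edge in mock, and the domain counted as kept once edges could differ by 2 bins.

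CXCL13, a single gene of chromosome 4 that attracts B cells through CXCR5, shared its left edge between the lists. Its domain ran over chr4:76880001-82360000 in PA+OA (5480 kb, 20 genes) and over chr4:76880001-79640000 in mock (2760 kb, 13 genes). The 7 further genes of the PA+OA domain include ANTXR2, the growth factor gene FGF5 and BMP3. CXCL13 itself was 682 kb from the nearest boundary in either list, because that boundary was the shared one.

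On chromosome 17, no ligand gene lay in a kept domain. The CCL2 to CCL1 locus holds the monocyte attractants CCL2, CCL7, CCL8 and CCL13, the eosinophil attractant CCL11 and CCL1, a ligand of CCR8. Its 6 genes lay in chr17:33000001-35120000 in PA+OA (2120 kb, 13 genes) and in chr17:34200001-35720000 in mock (1520 kb, 25 genes). The lists shared 12 genes, and 33.8% of the combined length of both domains. The neuronal channel gene ASIC2 was with the chemokine genes in PA+OA alone, and 13 genes from FNDC8 to AP2B1, including the Schlafen genes SLFN5, SLFN11, SLFN12, SLFN13, SLFN12L and SLFN14, were with them in mock alone.

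The edge nearest the CCL2 locus was a mock boundary at position 34200000, in the gap between ASIC2 (43.2 kb away) and CCL2 (55.3 kb away), and the nearest PA+OA boundary was 920 kb from it. The PA+OA edge at 35120000, between RAD51D and FNDC8, was 600 kb from any mock boundary, and that at 33000000 was 680 kb from one. CCL2 was 864 kb from the nearest boundary in PA+OA and 56.2 kb in mock. CCL1, at the other end of the locus, was 758 kb away in PA+OA and 162 kb in mock. The 6 genes thus lay in the middle of a domain in PA+OA and at its left end in mock.

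The CCL5 to CCL4L2 locus, a run of 10 genes further along the same arm, differed in the other direction. CCL5 attracts T cells and other leukocytes, CCL3, CCL4 and their copies CCL3L3 and CCL4L2 are macrophage inflammatory proteins, CCL16 is known for its expression in liver, CCL14, CCL15 and CCL23 act mainly through CCR1, and CCL18 is made by macrophages and dendritic cells. In PA+OA, CCL5 lay in chr17:35720001-35920000 (200 kb, 7 genes) and the other 9 in chr17:35920001-36520000 (600 kb, 19 genes). In mock all 10 lay in chr17:35720001-37120000 (1400 kb, 33 genes). A further PA+OA domain, chr17:36520001-37120000 with 7 genes from MYO19 to AATF, took up the rest of the mock domain, so the outer edges were the same in both lists.

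The PA+OA boundary at 35920000 fell within RDM1, 39.6 kb from CCL5 and 200 kb from the nearest mock boundary. CCL5 was 44.1 kb from a boundary in PA+OA and 156 kb in mock. CCL16, across that boundary, was 59.0 kb away in PA+OA and 259 kb in mock, and CCL4L2, the farthest, was 292 kb and 492 kb away. Every gene of this locus was nearer a boundary in PA+OA, the reverse of the CCL2 locus. The shared part of the combined domain length was 14.3% for CCL5 and 42.9% for the other 9.

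CCL5 and CCL16, 103 kb apart, were the single neighbouring pair that the lists placed differently. Neighbouring ligand genes lay in 1 PA+OA domain in 29 of 30 pairs (96.7%) and in 1 mock domain in 30 of 30 pairs. Over all 13918 pairs of neighbouring protein-coding genes no wider apart than the widest ligand gap of 111 kb, the share was 92.4% in PA+OA and 92.3% in mock. Pairs placed together in mock and not in PA+OA made up 1.95% of these 13918, and the reverse 2.08%. Over all neighbours at most 1 Mb apart, the share placed together was 88.6% in PA+OA and 88.4% in mock, with 2.57% together in mock alone and 2.77% in PA+OA alone. A count of 1 pair in 30 is near these backgrounds.

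Near-identical copies lie within the CCL5 to CCL4L2 locus. The same PA+OA domain holds CCL3 with CCL3L3, CCL4 with CCL4L2, and several TBC1D3 genes, and reads from copied sequence are hard to place. How the contacts were filtered in such sequence is not given in the sources used here, and its part in the edges was not tested. To show the likeness, the 200 bases before the start of CCL3 (chr17:36090144-36090343, minus strand) and CCL3L3 (chr17:36196759-36196958, minus strand) follow from RefSeq, GRCh38.p14, 5′ to 3′, with capitals for the bases that have no identical partner in their alignment.
CCL3: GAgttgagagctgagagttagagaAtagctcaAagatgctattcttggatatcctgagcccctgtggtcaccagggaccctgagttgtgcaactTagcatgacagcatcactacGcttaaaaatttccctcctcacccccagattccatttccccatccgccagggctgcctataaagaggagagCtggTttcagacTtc
CCL3L3: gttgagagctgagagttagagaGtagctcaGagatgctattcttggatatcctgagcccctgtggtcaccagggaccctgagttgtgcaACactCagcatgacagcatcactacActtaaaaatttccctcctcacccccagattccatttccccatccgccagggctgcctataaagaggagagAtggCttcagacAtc

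In these 200 bases, 9 of each gene had no identical partner, an identity of 95.5%. Over the whole 300-base windows CCL3 and CCL3L3 were 92.3% identical, CXCL1 and CXCL3 84.7%, CXCL6 and CXCL5 83.7%, and CCL15 and CCL23 78.7%. Pairs of 1 locus had a median identity of 54.7% (49 pairs, 48.0 to 92.3) and pairs of different loci 52.0% (479 pairs, 42.0 to 59.3). An identity of 70% or more was reached by 6 pairs within a locus and by none between loci.

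CXCL16, the third place on chromosome 17, encodes a membrane-bound ligand of CXCR6. Its domain was chr17:4520001-6480000 in PA+OA (1960 kb, 47 genes) and chr17:4440001-5480000 in mock (1040 kb, 41 genes), with 47.1% of the combined length shared. All 17 ligand genes of chromosome 17 had under 50% of the combined length shared, a state that 17 of all 46 ligand genes (37.0%) had and 29.4% of protein-coding genes had. Since the 17 genes lie in 3 places, the count rests on 3 regions. The receptor genes CCR7 (48.9%) and CCR10 (38.8%) of chromosome 17 were also under 50%. The share over all genes of chromosome 17 was not computed, so the state cannot be called particular to its ligand genes.

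The plot of distances sets the genes of chromosomes 4 and 17 side by side. Of all 46 ligand genes, CXCL9 and CCL5 were the 2 (4.35%) whose middle was at most 50 kb from a boundary that the other list lacked, against a background of 5.81%, a share near the background. The boundary was a mock one for CXCL9 and a PA+OA one for CCL5. At most 25 kb from such a boundary there were 0 ligand genes, against a background of 3.06%. At most 100 kb away there were 11 of 46, a higher share than the background of 10.5%. Those 11 come from the CXCL9 to CXCL11, CCL2 to CCL1 and CCL5 to CCL4L2 loci. Neighbours there share a boundary, so the 11 genes are not independent of each other. The median distance to the nearest boundary for the ligand genes was 566 kb in PA+OA (rank interval 217 to 758) and 359 kb in mock (259 to 574). Over all protein-coding genes it was 318 kb and 298 kb, and both intervals include these values.

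**Figure D3:**
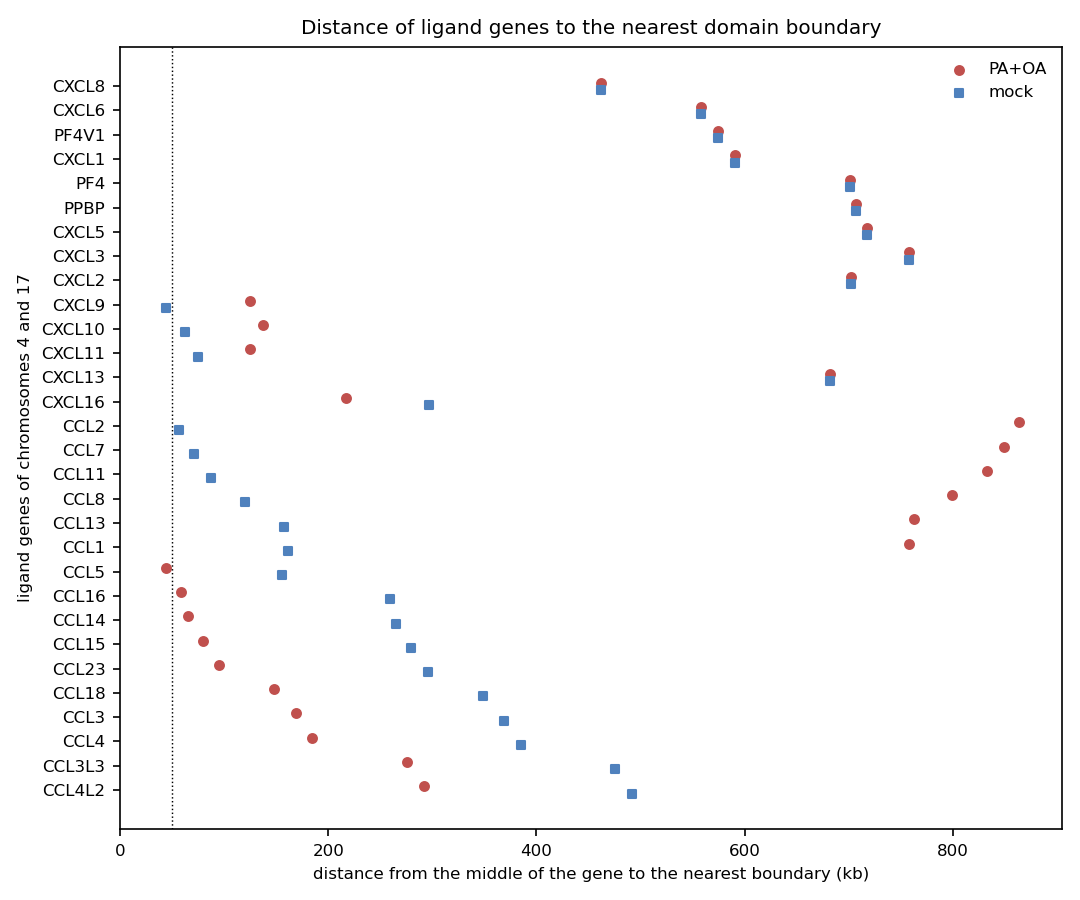
Distance in kb from the middle of each of the 30 ligand genes of chromosomes 4 and 17 to the nearest domain boundary, with PA+OA as circles and mock as squares (1 library each) and a dotted line at 50 kb. The points of CXCL8 to CXCL2 coincide, those of CCL2 to CCL1 lie farther from an edge in PA+OA (864 kb for CCL2) than in mock (56.2 kb), and those of CCL5 to CCL4L2 lie nearer in PA+OA.

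At the loci of other chromosomes, between 71.6% and 92.0% of the combined domain length was shared. XCL2 and XCL1, the lymphotactins that attract dendritic cells through XCR1, lay in chr1:166560001-174240000 in PA+OA (7680 kb) and chr1:165920001-172520000 in mock (6600 kb), with 71.6% shared. The eotaxins CCL26 and CCL24, ligands of CCR3, lay in chr7:75280001-76160000 in PA+OA (880 kb) and chr7:75400001-76160000 in mock (760 kb), a difference of 120 kb at the left edge. These 2 genes counted as kept when edges could differ by 3 bins.

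CCL27, which draws T cells to skin, and CCL19 and CCL21, which bring cells to lymph nodes through CCR7, shared the longest ligand domain. It ran over chr9:27320001-39280000 in PA+OA (11960 kb, 107 genes) and chr9:27320001-40480000 in mock (13160 kb, 108 genes). The locus of CCL22 and CCL17, ligands of CCR4, with CX3CL1, the ligand of CX3CR1, differed by 160 kb at 1 edge: chr16:57280001-59280000 in PA+OA (2000 kb) and chr16:57280001-59120000 in mock (1840 kb). It held the same 29 genes in both lists, since the stretch of difference holds no protein-coding gene.

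Of the 8 single genes, CXCL12, CXCL14 and CCL20 were kept. CXCL12, the ligand of CXCR4 that retains blood stem cells in the marrow, lay in chr10:43120001-44400000 in both lists (1280 kb), and its middle was 22.4 kb from the right boundary in PA+OA and 22.4 kb in mock, the shortest distance of any ligand gene in either list. CXCL14 lay in chr5:132520001-135880000 in both lists (3360 kb), with the cytokine genes IL5, IL13 and IL4 among 41 genes. CCL20, which attracts cells through CCR6, lay in chr2:226320001-229320000 in PA+OA (3000 kb) and chr2:226320001-229280000 in mock (2960 kb), with the same 20 genes, among them the insulin signalling gene IRS1.

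CCL28, CCL25 and CXCL17 had the same left edge in both lists. CCL28, a mucosal ligand of CCR10, had chr5:41680001-44480000 in PA+OA (2800 kb) and chr5:41680001-43640000 in mock (1960 kb), so that NNT and FGF10 were with it in PA+OA alone. CCL25, which draws T cells to the gut through CCR9, had chr19:5040001-9960000 in PA+OA (4920 kb, 122 genes) and chr19:5040001-13000000 in mock (7960 kb, 230 genes). CXCL17, a mucosal chemokine, had chr19:39880001-46160000 in PA+OA (6280 kb, 182 genes) and chr19:39880001-44840000 in mock (4960 kb, 132 genes). The mock boundary at 44840000 that parts CXCL17 from the APOE and APOC1 genes was 1320 kb from any PA+OA boundary.

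The share of the combined length that both domains cover summarises each gene without a threshold on edges. Its median was 70.8% for the ligand genes (rank interval 42.9 to 90.9), against 82.3% for the 19445 protein-coding genes with a domain in both lists. It was 100% for chromosome 4, 42.9% for chromosome 17, 90.9% for the loci elsewhere and 74.5% for the single genes. In the class from 40 to 50% there were 10 ligand genes (21.7%), against 6.64% of all genes, and 9 of those 10 are the genes from CCL16 to CCL4L2. CXCL16 is the tenth.

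**Figure D4:**
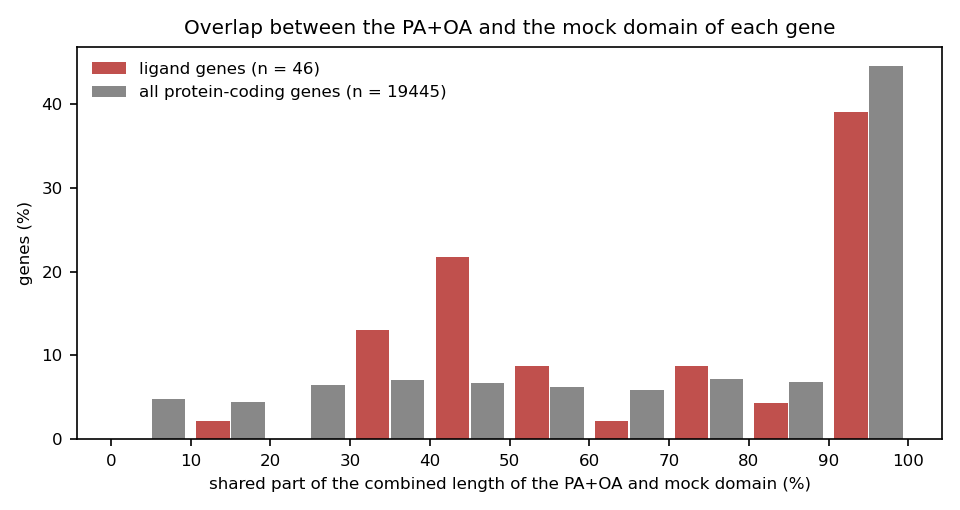
Percent of genes (y axis) by the shared part of the combined domain length in classes of 10% (x axis), for the 46 ligand genes beside all 19445 protein-coding genes with a domain in both lists. The class from 90 to 100% holds 39.1% of the ligand genes and 44.6% of all genes, and that from 40 to 50% holds 21.7% and 6.64%.

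The receptors of these ligands were placed in the same way. Of 23 receptor genes, 15 lay in a kept domain of either list (65.2%, 44.9 to 81.2), above the backgrounds of 40.4% in PA+OA and 40.5% in mock. Of the 15, 8 share 1 domain. Elsewhere the count was 7 of 15 receptor genes, so the receptor count also rests largely on 1 domain.

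The 8 receptors without a kept domain were ACKR1, CCR7, CCR10, CXCR2, CXCR1, CCR4, ACKR2 and CCR6. CXCR1 and CXCR2, the receptors of the CXCL8 group, lay in chr2:216680001-218200000 in PA+OA (1520 kb) and chr2:216480001-218200000 in mock (1720 kb), with 88.4% shared. CCR4, the receptor of CCL17 and CCL22, lay in chr3:32720001-33080000 in PA+OA (360 kb) and chr3:32600001-32960000 in mock (360 kb), and it was 126 kb from the nearest PA+OA boundary and 6.0 kb from the nearest mock one. The lowest share was that of ACKR1, a scavenging receptor on red cells and venules, at 20.4%. CCR6 had 73.2%, CCR7 48.9%, ACKR2 45.9% and CCR10 38.8%.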

How the data were processed

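Hi-C was made from 2 libraries of HepG2, and each was grouped by its title. Per library the authors deposited 1 domain list, whose columns give chromosome and edges (positions in base pairs, unit other) without any score, p-value or contact count. Build hg38 and the tools FastQC and HiC-Pro are named, per the submitters' processing notes. Not given in the sources used here are tool versions, the domain caller, the normalization and the valid contacts, on each of which a domain list can depend. No depth or interval for a single boundary could be given.

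Edges of each list within 1 bin of 40 kb were merged to boundaries (2396 in PA+OA, 2519 in mock). The middle of its RefSeq record set each gene's place, which is finer than the bin. Entries of zero length (108 in PA+OA, 136 in mock) hold no gene. Wilson 95% intervals of shares take in counting error alone. The placing and classing steps were tested on simulated data. These held kept domains, pieces of a larger domain and domains that spanned several of the other list. Other domains with 1 matched edge or none were not simulated, so their classing was not tested. Python 3.11.15, pandas 2.3.3, numpy 2.4.6, scipy 1.17.1 and Biopython 1.88 were used.

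Every ligand gene was counted. Named singly are the genes of the chromosome 4 and 17 loci, those whose domain was not kept, those within 50 kb of a boundary of 1 list only and pairs that 1 list parted, with receptors not kept; CXCL12, CXCL14 and CCL20 were added. Receptors in kept domains are not reported singly here. The members and lists were chosen with earlier results of these data known, and the promoter words after the placements were seen. A planned comparison of protein sequences was not run, and promoter sequences were used in its place. Alternatives changed the edge tolerance, merging, gene position, windows and chromosomes.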

Additional observations from a re-analysis of the deposited data

How the results depend on the processing

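No paired analysis was possible because each group is 1 library, and no result has a replicate check. Of 58 alternatives, 47 gave a count within 1.5 times the one reported, or a median within its rank interval, and 11 did not. Some of the 47 could not have differed, so the tally is no measure of stability. A neighbour limit of 500 kb could not part pairs at most 111 kb apart. Leaving out chromosome 17 could not lower the kept count, as none of its ligand genes was kept. Counts were compared without their totals, so 12 of 29 was taken as the same as 12 of 46. Ligand genes in a kept domain numbered 12 in PA+OA and 12 in mock. They numbered 3 of 33 in either list without chromosome 4, and 12 of 29 in either list without chromosome 17. The background over all protein-coding genes was 40.4% in PA+OA and 40.5% in mock. When kept meant a reciprocal overlap of at least 80%, the count was 20 of 46 in either list. The backgrounds under that rule were 52.5% in PA+OA and 52.3% in mock. With tolerances of 0, 2 and 3 bins the count was 11, 15 and 17 in either list. The count within 50 kb of a boundary of 1 list only was 2. It was 1 with a tolerance of 2 bins and 1 with 3 bins (CCL5 in both). Without chromosome 4 it was 1, and without chromosome 17 it was 1. Within 25 kb the count was 0 (background 3.06%). Within 100 kb it was 11 of 46, a higher share than the background of 10.5%. Those 11 come from the CXCL9 to CXCL11, CCL2 to CCL1 and CCL5 to CCL4L2 loci, where neighbours share a boundary. The median length of the mock domain was 1900 kb with each domain counted once, against 1520 kb over genes, and that of the PA+OA domain was 2120 kb, against 1520 kb. The counts of neighbouring pairs in 1 domain were 29 of 30 in PA+OA and 30 of 30 in mock under each alternative run, except that neighbours at most 2000 kb apart gave 29 of 33 in PA+OA and 30 of 33 in mock. The receptor count was 12 in either list with a tolerance of 0 bins and 15 under the other alternatives run for it. Caller settings and depth could not be varied, and their part in any edge was not tested.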

Other observations

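The word TATAAA, with its reverse complement TTTATA, is the core of the TATA box, which helps to set the start of transcription at many strongly regulated genes. It was found in 16 of the 33 ligand windows (48.5%), against 1524 of all 15812 protein-coding windows (9.64%). All 5 windows of the CCL5 to CCL4L2 locus held it (CCL15, CCL23, CCL18, CCL3 and CCL3L3), as did 3 of 4 of the CCL2 to CCL1 locus (CCL7, CCL8 and CCL13) and 3 of 8 of the CXCL8 to CXCL2 locus (CXCL8, PF4V1 and PPBP). In CXCL8 the match began 31 bases before the start site, in CCL3 29 bases and in CCL23 15 bases. In 3 of the 16 genes it began much farther away, at 221 bases in PF4V1, 191 in CXCL9 and 181 in CXCL13. Copies made by duplication share such letters, so genes of 1 locus are not independent of each other. The word was present in loci whose domains matched between the lists and in loci whose domains did not.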
